A study of Saccharomyces cerevisiae with 6 samples.

Results

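Lower glycolysis carries triose phosphate to pyruvate, and the yeast genes of its 5 enzyme steps were described here isozyme by isozyme. The members were TDH1, TDH2 and TDH3 (glyceraldehyde-3-phosphate dehydrogenase, GAPDH), PGK1 (phosphoglycerate kinase), GPM1, GPM2 and GPM3 (phosphoglycerate mutase and its homologs), ENO1 and ENO2 (enolase) and CDC19 (pyruvate kinase), 10 of the 7127 features in the count table. They were chosen by gene name with earlier results of these data known, and the high values of TDH1 and ENO1 in aged cells were among those results. Their aged and young values are therefore selected on this comparison and are given as a description, with no p-value. Standard errors and 95% limits of log2 fold changes come from the edgeR fit, which moderates a gene's spread between libraries by that of the other features. They cover that spread only, and not how the members were chosen.

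The data were 6 poly(A) RNA libraries of Saccharomyces cerevisiae strain CGY4.51, a prototrophic wild type whose genotype is labelled MAT@, grown in synthetic complete glucose medium at pH 4.5. Young cells (3 libraries) came from cultures kept in exponential growth, and aged cells (3 libraries) came from ministat aging devices (MADs) after 24 h. For these cultures the study's methods refer to its aging screen, whose medium also held methyl-alpha-D-mannopyranoside to keep cells from clumping in the device. A MAD holds mother cells labelled with beads while flowing medium carries their daughters away, so age and culture system cannot be told apart here. The comparison asks which transcripts differ between young and old wild-type cells. Each group held replicates 1 to 3, which the labels also number as batches 1 to 3, and replicates are described as biological.

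Library totals ranged from 29230292 to 41650202 estimated counts, and the members took between 1.12% and 2.38% of them. Levels are CPM, the counts scaled to library size, after scaling by the trimmed mean of M-values (TMM), which assumes that most genes do not differ between groups. The 9 daughter-specific genes had a summed level of 1082 to 1163 CPM in young and 1272 to 1397 CPM in aged libraries, and 5 were higher and 1 lower in aged cells at an adjusted p under 0.05 (edgeR). These 6 are 66.7% of the list, against 63.5% of all tested features past that threshold. PRY3 had the largest rise (log2 fold change 0.92, SE 0.15) and DSE3 the largest fall (-0.36, SE 0.09), and the part of daughter cells in the results below was not tested. Genes specific to α cells summed to at least 3389 CPM in every library and those specific to a cells to at most 41.6 CPM. Of the α-specific genes, SAG1 rose (0.33, SE 0.08) and 2 of 4 fell, most of all MF(ALPHA)2 (-1.58, SE 0.14), and of the a-specific genes 4 of 7 rose and none fell, most of all AGA2 (1.96, SE 0.32), whose level was 0.618 ± 0.339 CPM in young libraries. At the same threshold, 75% of the α-specific and 57.1% of the a-specific genes passed, against 63.5% of all tested features. In RNA from whole populations, fewer cells of a type and less RNA per cell cannot be told apart.

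GAPDH makes 1,3-bisphosphoglycerate and NADH from glyceraldehyde 3-phosphate. Phosphoglycerate kinase then yields the first ATP of the pathway, mutase and enolase rearrange and dehydrate the product, and pyruvate kinase yields the last ATP. In growing yeast, Tdh3p and Tdh2p are the main GAPDH isozymes and Eno2p is the glucose-induced enolase, whereas TDH1 and ENO1 are known for expression in slow growth, stress or on nonfermentable carbon. GPM2 and GPM3 resemble GPM1 but give little or no mutase activity in the cell. PYK2, which is no member, encodes a second pyruvate kinase that is repressed by glucose.

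Because the values compare near-identical paralogs, the coding sequences come first. They were read from the RefSeq annotation of build R64, the build that the submitters' processing notes name. The GAPDH genes are TDH1 on chromosome X (338271 to 339269, plus strand), TDH2 on X (453683 to 454681, minus strand) and TDH3 on VII (882812 to 883810, minus strand), each with 999 coding bases in 1 exon. The enolase genes are ENO1 on VII (1000927 to 1002240) and ENO2 on VIII (451327 to 452640), both on the plus strand and each of 1314 coding bases in 1 exon. TDH2 and TDH3 differed at 42 of 999 bases (95.8% identity), TDH1 and TDH2 at 98 (90.2%) and TDH1 and TDH3 at 111 (88.9%). ENO1 and ENO2 differed at 68 of 1314 bases (94.8%). The 150 bases in the middle of each GAPDH coding sequence (bases 425 to 574 counted from the start codon) show how the differences lie. Capitals mark the bases that differ from TDH3, and the windows lie at chrVII:883237-883386 (minus strand), chrX:454108-454257 (minus strand) and chrX:338695-338844 (plus strand).
TDH3: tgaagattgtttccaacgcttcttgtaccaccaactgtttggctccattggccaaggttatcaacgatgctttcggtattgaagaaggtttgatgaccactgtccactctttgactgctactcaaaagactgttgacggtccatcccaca
TDH2: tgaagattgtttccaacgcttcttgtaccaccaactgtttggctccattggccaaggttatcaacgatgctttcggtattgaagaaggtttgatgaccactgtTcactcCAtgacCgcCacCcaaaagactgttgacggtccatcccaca
TDH1: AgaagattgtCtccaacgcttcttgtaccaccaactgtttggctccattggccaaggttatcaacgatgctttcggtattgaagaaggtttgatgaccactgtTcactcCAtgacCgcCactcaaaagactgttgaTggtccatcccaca
In this window TDH2 differed from TDH3 at 6 bases and TDH1 at 8, and most of the differences lie in its last part. The matching middle window of the enolase genes (bases 583 to 732) lies at chrVIII:451909-452058 and chrVII:1001509-1001658, both on the plus strand, with capitals where ENO1 differs from ENO2.
ENO2: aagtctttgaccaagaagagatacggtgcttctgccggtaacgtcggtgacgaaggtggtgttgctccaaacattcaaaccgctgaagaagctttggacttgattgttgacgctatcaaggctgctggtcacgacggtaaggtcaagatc
ENO1: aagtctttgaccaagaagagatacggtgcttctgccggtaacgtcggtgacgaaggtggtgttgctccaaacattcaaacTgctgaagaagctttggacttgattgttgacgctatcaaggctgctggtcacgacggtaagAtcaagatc
Only 2 of these 150 bases tell the enolase genes apart.

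Reads were 150 bases long and paired. Of the 850 windows of 150 bases in TDH1, 0 were found without mismatch in TDH2 or TDH3, and of the 1165 in ENO1, 0 were found in ENO2. TDH2 and TDH3 shared 24 of 850 windows (2.82%), within their longest identical run of 173 bases. With windows of 100 bases the shared part was 4.56% for TDH1, 12.8% for TDH2, 8.22% for TDH3 and 2.72% for each enolase gene. With windows of 50 bases it was 15.7% for TDH1, 31.3% for TDH2, 24.4% for TDH3 and 23.6% for each enolase gene. A read end that lies within such a stretch names no single gene, so the counts of the TDH and ENO genes are uncertain. The mutase genes were far less alike, with 58.7% identity between GPM1 and GPM2, 57.2% between GPM1 and GPM3, 66.6% between GPM2 and GPM3, and 0 shared windows of 50 bases. CDC19 and PYK2 had 67.9% identity and 0 shared windows.

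**Figure D1:**
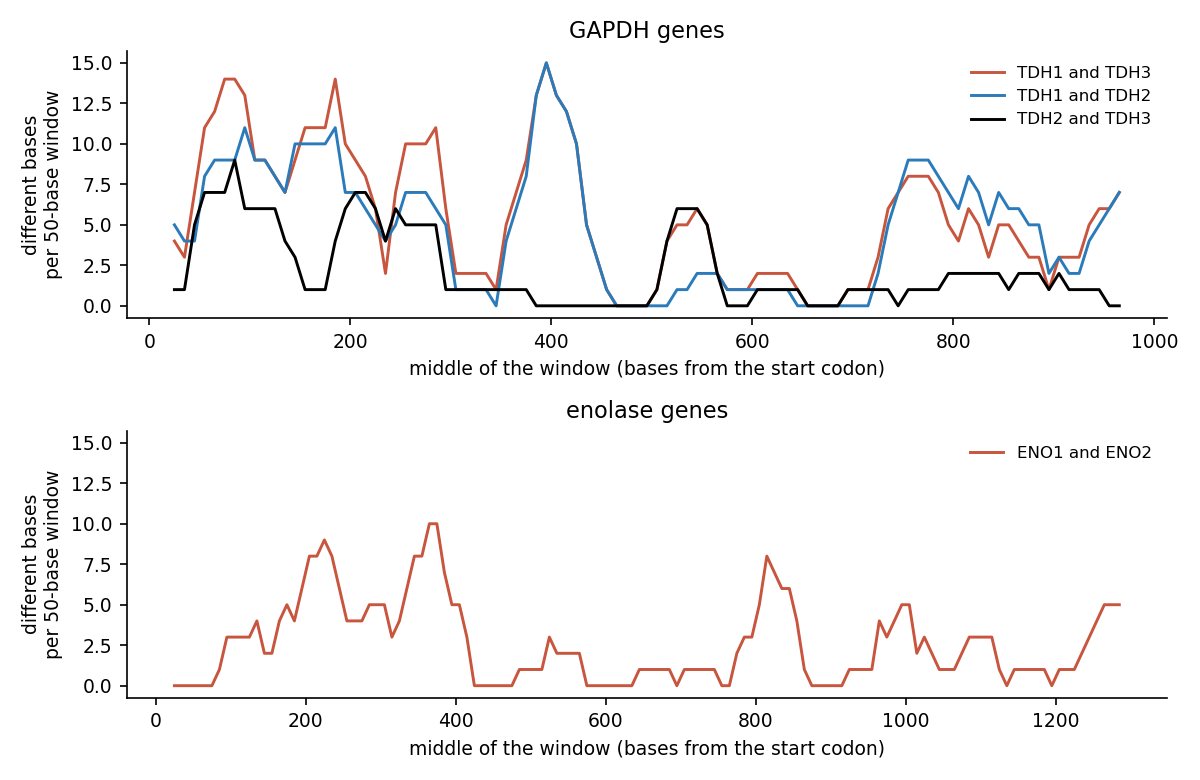
Number of different bases in windows of 50 bases (y axis) along the coding sequence (x axis, bases from the start codon) for 3 pairs of GAPDH genes (top) and for ENO1 and ENO2 (bottom). TDH1 differed from TDH3 by 0 to 15 bases per window and ENO1 from ENO2 by 0 to 10, with 8 of 95 and 29 of 127 windows free of differences.

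Among the GAPDH genes, TDH1 went from the lowest to the second highest level. It had 34.0, 29.4 and 29.3 CPM in young replicates 1 to 3 and 1266, 1252 and 1245 CPM in aged replicates 1 to 3. The groups lay far apart and the aged libraries were close together, with means of 30.9 ± 2.7 and 1254 ± 10.8 CPM (SD, n = 3). The ratio of the means was 40.6, and the fit put the log2 fold change at 5.34 (SE 0.11), with 95% limits of 5.11 and 5.58. Within batches 1, 2 and 3 the log2 ratio of aged to young was 5.22, 5.41 and 5.41. TDH1 ranked 6 of 6755 tested features by its rise.

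TDH2 had 924, 803 and 877 CPM in young and 1074, 1081 and 1112 CPM in aged libraries. Every aged library lay above every young library, but the step was small (log2 fold change 0.33, SE 0.09). TDH3, which encodes the most abundant GAPDH, had 6214, 5560 and 5803 CPM in young and 5771, 5755 and 5952 CPM in aged libraries. Its groups overlapped, and the fold change was near 0 on the log2 scale (-0.01, SE 0.10, with 95% limits of -0.24 and 0.22). TDH1 thus stood apart from its paralogs: the log2 ratio of TDH1 to TDH3 counts was -7.57 ± 0.06 in young and -2.22 ± 0.04 in aged libraries (SD, n = 3), and these ratios do not depend on how libraries are scaled.

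As a share of GAPDH counts, TDH1 took 0.474%, 0.459% and 0.437% in young and 15.6%, 15.5% and 15.0% in aged libraries. TDH3 took 86.6%, 87.0% and 86.5% in young and 71.1%, 71.2% and 71.6% in aged libraries. The shares of TDH1 and TDH3 moved in opposite directions in every batch, by 15.1, 15.0 and 14.5 percentage points up for TDH1 in batches 1 to 3. TDH2 held 12.8% ± 0.26 of GAPDH counts in young and 13.3% ± 0.08 in aged libraries. The ratio of TDH2 to TDH3 counts was between 0.144 and 0.151 in young and between 0.186 and 0.188 in aged libraries, without overlap. At most 0.474% of the GAPDH counts of a young library had been given to TDH1, and how reads were divided among the paralogs was not tested.

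**Figure D2:**
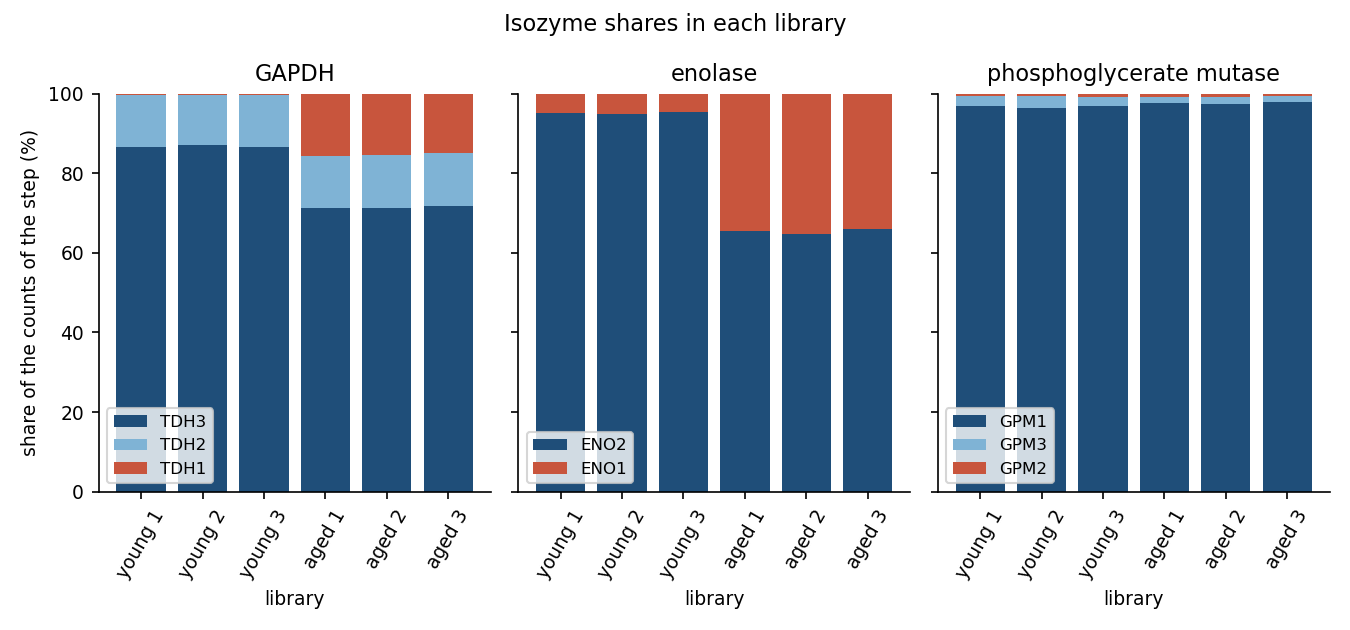
Share of the estimated counts of each enzyme step (y axis, %) taken by each isozyme in each of the 6 libraries, as stacked bars from 0 to 100%. TDH1 went from at most 0.474% to at least 15.0% of GAPDH counts and ENO1 from at most 5.21% to at least 34.1% of enolase counts, while GPM1 stayed at 96.4% or more of the mutase counts.

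PGK1 (chromosome III, 137746 to 138996, plus strand) is the only gene of its step. It had 1966, 1512 and 1793 CPM in young and 2172, 2171 and 2288 CPM in aged libraries. The young libraries spread more than the aged ones (coefficient of variation 13.0% and 3.05%), and the groups did not overlap. Its log2 fold change was 0.33 (SE 0.11), and within batches 1 to 3 it was 0.14, 0.52 and 0.35.

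Of the mutase genes, GPM1 (chromosome XI, 163642 to 164385, minus strand) encodes the enzyme that acts in glycolysis. It had 3085, 2812 and 3033 CPM in young and 3242, 3199 and 3328 CPM in aged libraries. The aged libraries lay just above the young ones, with a log2 fold change of 0.13 (SE 0.09, 95% limits -0.08 and 0.34). GPM3 (chromosome XV, 223268 to 224179, plus strand) had 79.4, 85.7 and 76.0 CPM in young and 50.1, 55.5 and 49.4 CPM in aged libraries. It was lower in every aged library, by a closely similar amount in each batch (log2 ratios -0.66, -0.63 and -0.62). GPM2 (chromosome IV, 413953 to 414888, plus strand) had 20.2, 19.5 and 23.8 CPM in young and 25.3, 29.1 and 25.5 CPM in aged libraries. Its log2 fold change was 0.33 (SE 0.10), and 0.32, 0.57 and 0.10 within batches 1 to 3, against -0.64 (SE 0.08) for GPM3. The ratio of GPM2 to GPM1 counts overlapped between the groups, and its log2 difference in batch 3 was -0.03. The homologs therefore went opposite ways, and the ratio of GPM2 to GPM3 counts was 0.228 to 0.313 in young and 0.505 to 0.523 in aged libraries. Neither weighed much in the step: GPM2 held 0.687% ± 0.064 and 0.799% ± 0.075 of mutase counts in young and aged libraries, with overlap, and GPM3 held 2.62% ± 0.28 and 1.55% ± 0.12 (SD, n = 3).

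Enolase showed the same kind of shift as GAPDH. ENO1 had 149, 148 and 137 CPM in young and 1246, 1208 and 1265 CPM in aged libraries. ENO2 had 2967, 2687 and 2800 CPM in young and 2358, 2225 and 2447 CPM in aged libraries. ENO1 was higher in every aged library and ENO2 lower, with ratios of the means of 8.58 and 0.832. The log2 fold changes were 3.10 (SE 0.09) for ENO1 and -0.27 (SE 0.10) for ENO2, and ENO1 ranked 26 of 6755 by its rise. With libraries scaled by total counts only, ENO2 turned to 0.25.

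ENO1 took 4.78%, 5.21% and 4.66% of enolase counts in young and 34.6%, 35.2% and 34.1% in aged libraries. The difference was 29.7 percentage points on average and 29.8, 30.0 and 29.4 in batches 1 to 3. In aged cells, TDH1 and ENO1 reached nearly equal counts: their ratio was 1.02, 1.04 and 0.984 in aged replicates 1 to 3, against 0.228, 0.199 and 0.214 in young replicates 1 to 3. These counts are not adjusted for length (999 and 1314 coding bases). Per kb, the aged means were 1256 CPM for TDH1 and 944 CPM for ENO1.

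CDC19 (chromosome I, 71786 to 73288, plus strand) had 1283, 1042 and 1213 CPM in young and 1466, 1362 and 1542 CPM in aged libraries. The groups did not overlap, and the log2 fold change was 0.30 (SE 0.10). PYK2 had 13.5, 9.54 and 12.6 CPM in young and 22.8, 21.8 and 22.5 CPM in aged libraries, and rose by 0.91 on the log2 scale (SE 0.12). PYK2 remained a small part of pyruvate kinase counts, at 0.992% ± 0.072 in young and 1.52% ± 0.07 in aged libraries (SD, n = 3).

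**Figure D3:**
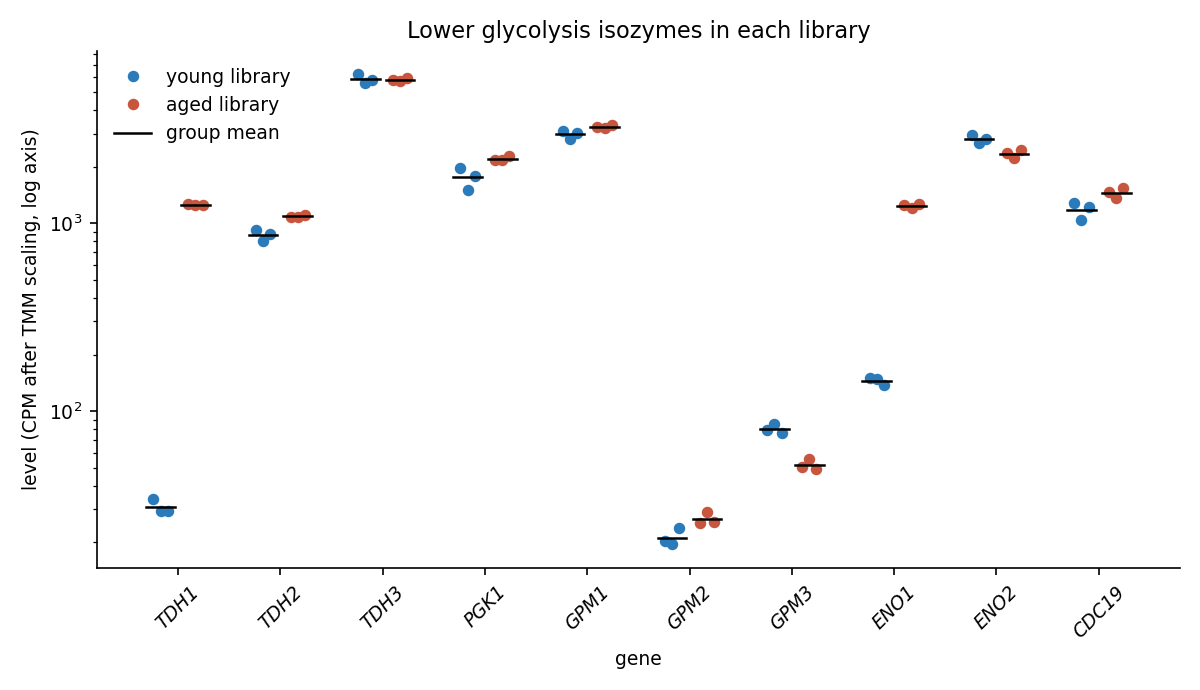
Level of each of the 10 isozyme genes (y axis, CPM after TMM scaling, log axis) in the 3 young and 3 aged libraries, with group means as black bars. TDH1 and ENO1 rise from 30.9 and 144.5 CPM to 1254 and 1240 CPM, whereas the 2 groups of TDH3 overlap, with means of 5859 and 5826 CPM.

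Across the members, 8 of 10 passed an adjusted p of 0.05 over all tested features, 6 higher and 2 lower in aged cells. Of the 6755 features tested, 63.5% passed, 32.7% higher and 30.8% lower, and nothing is read from the members' count since they were chosen with this comparison known. With an offset on GC content 6 members passed, 3 higher and 3 lower, and with total counts only 8 passed, all higher. Leaving out 1 library left 5 to 7 members past the threshold, with 5 without young replicate 3, without aged replicate 1 or without aged replicate 3. The groups did not overlap for 9 members, against 70.1% of tested features. The median log2 fold change was 0.32 over the members, 0.22 over the 8 members other than TDH1 and ENO1, and 0.02 over all tested features. Apart from TDH1 and ENO1, every member lay within -0.64 and 0.33.

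Summed over isozymes, the steps differed little from each other. GAPDH totals were 6758 ± 392 CPM in young and 8170 ± 122 CPM in aged libraries (SD, n = 3). TDH1 accounted for 1223 CPM of the difference of 1411 CPM, TDH2 for 221 CPM and TDH3 for -32.8 CPM (SE 201). Without TDH1, the step was 1.03 times its young level. Enolase totals were 2962 ± 142 and 3583 ± 141 CPM, where ENO1 added 1095 CPM and ENO2 took away 475 CPM. The ratio of aged to young totals was 1.21 for GAPDH, 1.26 for phosphoglycerate kinase, 1.08 for mutase, 1.21 for enolase and 1.24 for pyruvate kinase, and every aged library lay above every young one in each step. With an offset on GC content, the log2 fold changes of PGK1 and CDC19, each alone in its step, were 0.08 and 0.06, and that of GPM1, which held most mutase counts, was -0.09. The 10 members together went from 15735 ± 1012 to 18754 ± 464 CPM, a ratio of 1.19.

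Levels per kb of coding sequence set the members in order. Young cells had TDH3 (5865 CPM per kb) first, then GPM1 (4001), ENO2 (2144), PGK1 (1405), TDH2 (869), CDC19 (785), ENO1 (110), GPM3 (88.1), TDH1 (30.9) and GPM2 (22.6). Only TDH2 and CDC19 overlapped among neighbours in that order. In aged cells TDH1 (1256 CPM per kb) had moved to the fifth place, above TDH2 (1090), and ENO1 (944) lay beside CDC19 (969). There, ENO2 and PGK1 overlapped, as did CDC19 and ENO1. GPM3 (56.7) and GPM2 (28.5) were the lowest.

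Some of these levels are less certain than their spread shows. GPM1, PGK1 and CDC19 each have, in the table, a feature with an adjoining systematic name of the opposite strand letter, namely YKL153W, YCR013C and YAL037C-B, which were looked up after their values were seen. RefSeq annotates none of the 3, so their positions were not checked. YKL153W had 61.2% to 67.1% of the counts of GPM1 in a library, YCR013C 37.3% to 45.3% of those of PGK1 and YAL037C-B 56.6% to 66.1% of those of CDC19. The young and aged means were 64.8% and 62.4% for YKL153W, with overlap. They were 42.5% and 38.3% for YCR013C and 62.4% and 57.6% for YAL037C-B, without overlap. The log2 fold changes of the 3 features were 0.08 (SE 0.09), 0.19 (SE 0.09) and 0.19 (SE 0.09), against 0.13, 0.33 and 0.30 for GPM1, PGK1 and CDC19. The strand setting of the counting is not given in the sources used here. The decimal parts of the counts of a pair were the same in 4 of 6 libraries for GPM1, 1 of 6 for PGK1 and 4 of 6 for CDC19. Beyond that comparison, whether the same reads were counted to both features of a pair was not tested. With the neighbour counted to GPM1, PGK1 and CDC19, the log2 ratios of aged to young were 0.11, 0.29 and 0.26, against 0.13, 0.33 and 0.30 without it. The mean levels in aged libraries were then 5289, 3056 and 2295 CPM, against 3256, 2210 and 1457 CPM for the gene alone. The order per kb above is for each gene counted alone and was not redone. The places of TDH1 and ENO1 relative to CDC19 in aged cells depend on how these counts are assigned.

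The smaller differences depended on how GC content and library size were treated, and TDH1 and ENO1 remained far above the others. A per-library offset on GC content gave TDH2, PGK1 and CDC19 log2 fold changes of 0.06, 0.08 and 0.06, GPM1 -0.09, TDH3 -0.28 and ENO2 -0.54. With it, TDH1 was at 5.10, ENO1 at 2.85, GPM2 at 0.47 and GPM3 at -0.72. Total counts only moved the median of all features from 0.02 to 0.54, and relative to that median TDH1 was at 5.32, ENO1 at 3.08, ENO2 at -0.29 and GPM3 at -0.66. Isozyme shares are ratios within a library and are not touched by library scaling.

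**Figure D4:**
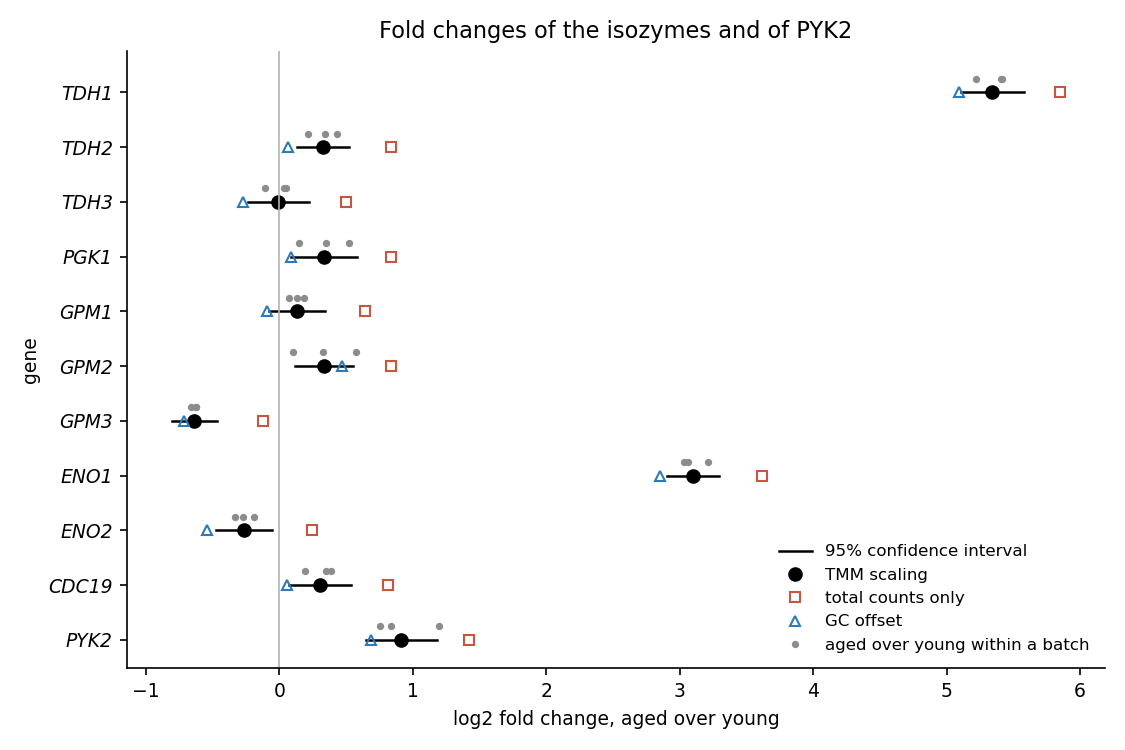
Log2 fold change of aged over young (x axis) for the 10 members and PYK2 with TMM scaling (black points, 95% confidence intervals), with total counts only (squares), with the GC offset (triangles), and as the ratio within each batch (grey dots). TDH1 lies between 5.10 and 5.85 and ENO1 between 2.85 and 3.62 under these 3 settings, whereas TDH3 lies between -0.28 and 0.50.

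The rest of the pathway was read from lists of neighbouring reactions. Of 9 upper glycolysis genes, 3 rose and none fell, with a median log2 fold change of 0.09, against 32.7% higher and 30.8% lower over all tested features. The GC offset gave 4 lower, DESeq2's Wald test 1 lower, and total counts only 9 higher. All 3 that rose encode sugar kinases, the enzymes that phosphorylate glucose: HXK1 went from 46.4 ± 9.6 to 175 ± 9.6 CPM (log2 fold change 1.91, SE 0.13), GLK1 had 1.62 (SE 0.08) and EMI2 0.97 (SE 0.08). HXK2, the main hexokinase on glucose, had 0.09 (SE 0.11) and did not pass. Upper glycolysis summed to 9927 to 10285 CPM in young and 9823 to 10458 CPM in aged libraries.

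Among the 8 genes from pyruvate to ethanol, 4 rose and 2 fell, with a median of 0.28. That is 75% of the list, against 63.5% of all tested features. ADH4, an alcohol dehydrogenase that is no sequence relative of ADH1, rose from 38.3 ± 1.6 to 797 ± 19.7 CPM (log2 fold change 4.38, SE 0.09). ADH1, the main fermentative isozyme, had 2918 ± 91.4 CPM in young libraries against 1025 ± 28.1 CPM in aged ones, a fall with log2 fold change -1.51 (SE 0.09). Both were named as the list's largest changes past the threshold, and the list was chosen with earlier results known. The whole list summed to 6969 to 7107 CPM in young and 4724 to 4909 CPM in aged libraries, so this stretch was lower in total with TMM scaling. PDC1, the main pyruvate decarboxylase, fell as well with TMM scaling (-0.47, SE 0.09). With total counts only, 6 genes of this list were higher and 1 lower.

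All 4 genes of the glycerol branch passed the test, 3 higher and 1 lower, with a median of 0.36, against 63.5% passing over all tested features. The GC offset left 2 higher, as did leaving out young replicate 3, aged replicate 1 or aged replicate 3. YER062C, the glycerol-3-phosphate phosphatase gene GPP2, rose from 115 ± 6.9 to 206 ± 7.6 CPM (log2 fold change 0.84, SE 0.08), and its paralog YIL053W (GPP1) fell from 698 ± 11.0 to 504 ± 9.5 CPM (-0.47, SE 0.08). Of 6 genes of gluconeogenesis and the glyoxylate cycle, 3 rose and none fell (50% passing, against 63.5% over all tested features), with a median of 0.19. The GC offset gave 1 higher and 1 lower, total counts only gave 6 higher, and leaving out 1 library gave 2 or 3 higher. MLS1, a malate synthase, had the largest rise (0.86, SE 0.15), from 2.87 ± 0.38 to 5.23 ± 0.11 CPM. PCK1 and FBP1, the key genes of gluconeogenesis, had -0.01 (SE 0.12) and 0.08 (SE 0.17). Of 6 regulators of glycolytic genes, 1 rose and 2 fell (50% passing, against 63.5% over all tested features), with a median of -0.10. TYE7, an activator of glycolytic genes, rose by 0.83 (SE 0.08) and ABF1, a general regulatory factor, had the largest fall (-0.85, SE 0.08). GCR1, the main activator of this pathway, was at 70.5 ± 2.9 and 69.5 ± 3.5 CPM (-0.02, SE 0.07).

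The upstream sequence of TDH1 and ENO1 is shown because these were the members whose levels differed most. Printed are the 250 bases from 500 to 251 before the start codon, at chrX:337771-338020 and chrVII:1000427-1000676 of R64, both on the plus strand. Capitals mark matches on either strand to CTTCC, a core bound by Gcr1p, to AGGGG, the stress response element, and to CACCCNNAC, a core bound by Rap1p.
TDH1: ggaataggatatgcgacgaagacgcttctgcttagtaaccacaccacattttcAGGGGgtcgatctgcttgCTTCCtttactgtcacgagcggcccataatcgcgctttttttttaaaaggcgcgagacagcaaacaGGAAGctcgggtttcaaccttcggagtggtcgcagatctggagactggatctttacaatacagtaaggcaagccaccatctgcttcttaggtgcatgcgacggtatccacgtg
ENO1: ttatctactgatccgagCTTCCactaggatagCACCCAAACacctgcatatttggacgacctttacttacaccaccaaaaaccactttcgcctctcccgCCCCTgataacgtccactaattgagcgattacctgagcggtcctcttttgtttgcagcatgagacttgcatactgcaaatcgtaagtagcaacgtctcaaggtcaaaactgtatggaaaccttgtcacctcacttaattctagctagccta
In the 600 bases before the start codon, TDH1 had 2 matches to CTTCC, 2 to AGGGG and 0 to CACCCNNAC, and ENO1 had 2, 1 and 1. TDH3 had 0, 3 and 1, TDH2 had 3, 0 and 0, and ENO2 had 3, 0 and 0. Of 5999 protein-coding genes, 72.9% had CTTCC in such a window, 39.7% AGGGG and 5.0% CACCCNNAC, and among the 10 members 8, 6 and 3 had them. No matches overlapped among the members, and a window may reach into a neighbouring gene or the transcript's own leader. These matches are a description of letters and not of bound sites.

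The 3 features nearest to TDH1 in pattern, by Euclidean distance between mean-centred log2 CPM over the 6 libraries, were RDN5-1 (0.564), ETS2-2 (0.614) and BSC1 (0.749). Their young levels were low, at 4.80 ± 1.30, 6.96 ± 1.07 and 0.529 ± 0.149 CPM, against 195 ± 39.7, 370 ± 47.4 and 18.5 ± 2.3 CPM in aged libraries (SD, n = 3). RDN5-1 and ETS2-2 are features of the repeated ribosomal DNA, whose copies share reads. For ENO1 the 3 nearest were HSP30 (0.237), which encodes a stress-induced plasma membrane protein, GND2 (0.313), the minor 6-phosphogluconate dehydrogenase, and ANB1 (0.370), the eIF5A isoform of low-oxygen growth. HSP30 went from 10.7 ± 0.69 to 87.4 ± 5.1 CPM, GND2 from 3.61 ± 0.29 to 35.6 ± 2.4 CPM and ANB1 from 11.0 ± 1.6 to 102 ± 4.9 CPM (SD, n = 3). ENO1 ranked 23 among the tested features nearest to TDH1 (2.75).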

How the data were processed

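Poly(A) RNA of 3 young and 3 aged cultures was made into libraries with the NEB Ultra II Directional kit and read as pairs of 150 bases. The submitters' processing notes name bcl2fastq, cutadapt 2.6, STAR 2.7.6a, featureCounts and Subread 1.6.2, and build R64. The authors deposited estimated counts per feature, not normalized. In each library 54.3% to 59.5% of values carry a decimal part, as where reads are divided among features. The strand setting is not given in the sources used here.

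Estimated counts were rounded and filtered with filterByExpr (minimum count 10), which left 6755 of 7127 features and all 10 members. Aged and young cells were compared with edgeR 4.0.16 (TMM, quasi-likelihood F-test, two-sided, Benjamini-Hochberg adjustment over all features tested, R 4.3.3), with the group as the only term. The study itself used DESeq2 and shrank its fold changes, a step left out here. The fit was tested on simulated data. Shares and ratios used the counts as deposited. The GC offset was a loess curve (span 0.5) over the 5976 tested features (88.5%) with a RefSeq gene. The labels give the replicate number as the batch in both groups, so the numbers could pair the samples, but the main fit did not use them. Deviations from the group means correlated at r = 0.126, 0.334 and 0.122 between same-numbered libraries, and at -0.297 to 0.202 between the others, with the highest for young replicate 1 and aged replicate 3. DESeq2 1.42.0, other scalings and filters, a replicate block and leaving out each library were tried as alternatives.

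The members and the gene lists were chosen with earlier results of these data known. Named genes were the 10 members, PYK2, per list the largest rise and fall past the threshold, and for TDH1 and ENO1 the 3 nearest features. Other genes named were chosen after their values were seen. The sources used here name no molecular identifiers, so counts are not independent molecules, and the spread between replicates sets the precision.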

Additional observations from a re-analysis of the deposited data

How the results depend on the processing

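With 3 libraries a group, and age and device confounded, the limits are those of scaling, GC content and reads shared between paralogs. Leaving out 1 of 3 libraries cannot, by arithmetic, move a difference in share by as much as the pooled spread between libraries. Without 1 library, the differences in share (aged minus young) were 14.8 to 15.1 percentage points for TDH1 and 29.4 to 30.0 for ENO1. They were 0.069 to 0.148 for GPM2 and -1.16 to -0.91 for GPM3. Counts per coding length moved the GPM2 and GPM3 shares by less than the spread between libraries. They cannot move those of TDH1 and ENO1, whose paralogs have equal lengths. Averaging the differences within batches gives the same mean by arithmetic. The GC offset and reads shared between paralogs were not tried on the shares. Over the alternatives, the log2 fold changes of TDH1 and ENO1 ranged from 5.10 to 5.85 and from 2.85 to 3.62. The number of features changed was 4288, and with the replicate block 4539. The replicate block moved no member's log2 fold change by more than 0.00796 and no count by over 1.5 times.

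With total counts only, 4639 features were higher and 562 lower, against 2207 and 2081, the log2 fold change of ENO2 turned to 0.25, and the log2 ratios of the step totals were 0.78 for GAPDH, 0.84 for phosphoglycerate kinase, 0.63 for mutase, 0.79 for enolase, 0.81 for pyruvate kinase and 0.76 for all 10 members. The same setting gave 9 higher genes in upper glycolysis, 1 lower from pyruvate to ethanol, 0 lower in the glycerol branch, 6 higher in gluconeogenesis, 4 higher and 1 lower regulator, 8 higher and 0 lower daughter-specific genes, and 2 higher and 1 lower α-specific genes. These shifts follow from the scaling, which moved the median of all features by about 0.5 on the log2 scale. The GC offset, with or without the replicate block, gave 4 lower genes in upper glycolysis and 1 higher and 1 lower in gluconeogenesis, and DESeq2's Wald test gave 1 lower in upper glycolysis, for which the cause was not tested. Leaving out 1 library at a time gave 0 to 1 lower a-specific genes (1 without young replicate 1). Adding the opposite-strand neighbours to GPM1, PGK1 and CDC19, chosen after seeing the data, moved no step total by more than the spread between libraries.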
